A study of Mus musculus with 42 samples.

Results

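The expression of 10 genes that encode structural proteins of the sarcomere was examined in mouse muscle precursors and muscle stem cells. Of these, 7 encode proteins of the Z-disc (Actn2, Actn3, Myot, Myoz1, Myoz2, Ldb3 and Tcap) and 3 encode myomesins of the M-band (Myom1, Myom2 and Myom3). They were taken by gene symbol from the 24466 symbols in the RNA-seq count tables, and all 10 were among the 14836 genes with enough counts to test. No measured value set the choice, but it was made with earlier results of these data known. RNA-seq was performed on iPax7 cells grown with doxycycline (+Dox, 3 libraries), on iPax7 cells 3 days after its removal (-Dox, 2 libraries) and on satellite cells (3 libraries). iPax7 cells are myogenic precursors derived from a mouse embryonic stem cell line that carries a Dox-inducible Pax7, sorted as PDGFαR+ Flk-1- cells, and both iPax7 conditions carry the transgene and were grown in medium with FGF. The treatment label gives Dox as 0.75 µg/ml, whereas the growth protocol gives the same figure in mg/ml. Satellite cells, the stem cells of adult muscle, were sorted from skeletal muscle of Pax7-ZsGreen reporter mice and are labelled in vivo. The age, sex and strain background of the mice and the number of animals were not given in the sources used here.

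Within the sarcomere, the Z-disc anchors the barbed ends of actin filaments from neighbouring sarcomeres, which are cross-linked there by α-actinin, and the M-band holds the myosin filaments in register through the myomesins and titin. Myotilin, the myozenins, the LIM-domain protein encoded by Ldb3 and telethonin bind α-actinin, filamin or titin and complete the Z-disc. These genes are known as products of muscle differentiation, when myoblasts leave the cell cycle and assemble myofibrils, and several come as isoforms that mark fast, slow, embryonic or cardiac muscle.

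The libraries held between 39010958 and 54674619 counts on genes. Multimapped reads, which were not assigned to a gene, made up 7.11 to 7.6% in iPax7 libraries and 23.58 to 30.68% in satellite cell libraries, so that cell source and library quality cannot be told apart. Pax7 had 246 to 299 CPM (counts scaled to each library's effective size after TMM normalization) in +Dox, 4.66 to 5.70 CPM in -Dox and 83.0 to 180 CPM in satellite cells. The 8 satellite cell markers summed to 14265 to 21560 CPM in satellite cells, 3933 to 5570 CPM in +Dox and 954 to 1058 CPM in -Dox. The 8 markers of differentiating myocytes summed to 35684 to 35983 CPM in -Dox, against 142 to 170 CPM in +Dox and 191 to 349 CPM in satellite cells. Summed markers of fibroblasts, endothelium and blood were higher in satellite cells than in iPax7 cells, whereas those of smooth muscle were not. The 5 fibroblast markers summed to 982 to 1474 CPM there and to 87.2 to 266 CPM in iPax7 cells, and endothelial and blood markers summed to 289 to 423 and 27.8 to 74.6 CPM, against at most 9.80 CPM for either list in iPax7 cells. Ly6a (fibroblast) did not follow its sum, with 18.01 to 99.93 CPM in satellite cells and 55.98 to 203.9 CPM in +Dox. Cd68 (blood) overlapped between these groups, with 6.09 to 36.3 and 3.33 to 9.80 CPM. Itgam (blood) had a count of 0 in iPax7 cells and in the third satellite cell library. The other markers of these lists were higher in satellite cells than in iPax7 cells without overlap. The 4 smooth muscle markers summed to 631 to 790 CPM in satellite cells, 93.5 to 164 CPM in +Dox and 1381 to 1408 CPM in -Dox. Des, which is also a Z-disc gene of skeletal muscle, was highest in satellite cells and supplied most of their sum, with 427 to 532 CPM. Myh11 had 15.5 to 46.4 CPM in satellite cells and at most 1.503 CPM in iPax7 cells. Acta2 had 78.4 to 310 CPM in satellite cells and 1139 to 1142 CPM in -Dox, and Cnn1 overlapped between satellite cells and +Dox. The part of other cell types in the satellite cell levels below was not tested. Nothing in the labels says that libraries of a group came from separate cultures or animals, so p-values measure the spread between these libraries, which may be technical. Over all genes this spread exceeded counting error, with a chi-square per degree of freedom of 47.9 to 428 between libraries of a group. In +Dox it was 47.9 between the first 2 libraries, and 426 and 307 between each of them and the third. In these bulk samples, fewer cells that express a gene and less RNA per cell cannot be told apart.

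Promoters of the members are shown for the 6 genes in which a match to MEF2, CArG or CAGCTG was found. Actn2, Actn3 and Tcap held none of these matches and are not shown. Whether the matches go with the expression or accessibility described below was not tested. The 250 bases before the most 5′ coding start site (TSS) were read from the NCBIM37 (mm9) genome for the 9 members other than Myot, and the last 100 of them are given here in the direction of transcription. Capitals mark matches to MEF2, CArG (the serum response factor motif) or the E-box CAGCTG, each searched on both strands. Myoz1 (chr14:21475763-21475862, minus strand) and Myom3 (chr4:135315530-135315629, plus strand) hold MEF2, Myoz2 (chr3:122737909-122738008, minus strand) holds MEF2 followed by CAGCTG, Myom2 (chr8:15057553-15057652, plus strand) holds MEF2 followed by CArG, and Ldb3 (chr14:35401868-35401967, minus strand) and Myom1 (chr17:71368761-71368860, plus strand) hold CArG.
Myoz1: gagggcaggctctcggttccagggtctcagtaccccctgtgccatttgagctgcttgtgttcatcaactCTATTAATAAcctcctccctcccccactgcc
Myoz2: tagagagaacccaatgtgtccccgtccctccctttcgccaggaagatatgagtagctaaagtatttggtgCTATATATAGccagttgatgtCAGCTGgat
Ldb3: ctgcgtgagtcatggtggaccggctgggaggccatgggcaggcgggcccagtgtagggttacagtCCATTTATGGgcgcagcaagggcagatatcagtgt
Myom1: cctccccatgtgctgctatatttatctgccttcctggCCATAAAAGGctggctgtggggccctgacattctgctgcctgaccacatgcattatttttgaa
Myom2: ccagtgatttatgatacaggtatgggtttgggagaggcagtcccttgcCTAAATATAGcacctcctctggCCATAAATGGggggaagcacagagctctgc
Myom3: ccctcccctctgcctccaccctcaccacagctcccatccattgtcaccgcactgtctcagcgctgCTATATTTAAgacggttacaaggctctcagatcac

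MEF2 matches were found in 4 of 9 members and in 2.91% of 18426 promoters of the same length, and CArG matches were found in 3 of 9 members and in 1.36% of promoters. CAGCTG, an E-box bound by myogenic factors, was found in 1 of 9 members and in 11.8% of promoters, and any E-box (CANNTG) was found in 7 of 9 and in 62.5%. The MEF2 matches began 31 (Myoz1), 30 (Myoz2), 35 (Myom3) and 52 (Myom2) bases before the TSS. MEF2 has an AT-rich core like that of a TATA box, and the letters TATAAA were found in 0 of 9 members and in 12% of promoters. Other spellings of a TATA box were not searched, so this does not tell MEF2 matches from TATA boxes. CATTCC, bound by TEAD factors, was found in 0 of 9 members and in 11.6% of promoters. A match describes the letters and does not show that a factor binds there.

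Dox removal was studied because it ends Pax7 expression and lets the precursors differentiate. Of the 10 members, 9 were higher in -Dox than in +Dox and 0 were lower, whereas 7.64% of all genes tested were called in either direction, 4.63% higher and 3.01% lower. A call required an adjusted p under 0.05 and a change of at least 2-fold. The median log2 fold change was 8.79 for the members and -0.00492 for all genes tested. Satellite cells gave a mixed picture. Against +Dox, 4 members were higher in satellite cells (Actn3, Myot, Tcap and Myom1), 2 were lower (Myom2 and Myom3) and 4 were not called, where 42.1% of all genes were called (23.9% higher and 18.2% lower), with a median of 1.84 for the members and 0.17 for all genes. Against -Dox, 8 members were lower in satellite cells and 0 were higher, where 37.6% of all genes were called (20.4% higher and 17.2% lower), with medians of -6.68 and 0.23. The comparisons share libraries, so their calls are not independent of each other.

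**Figure D1:**
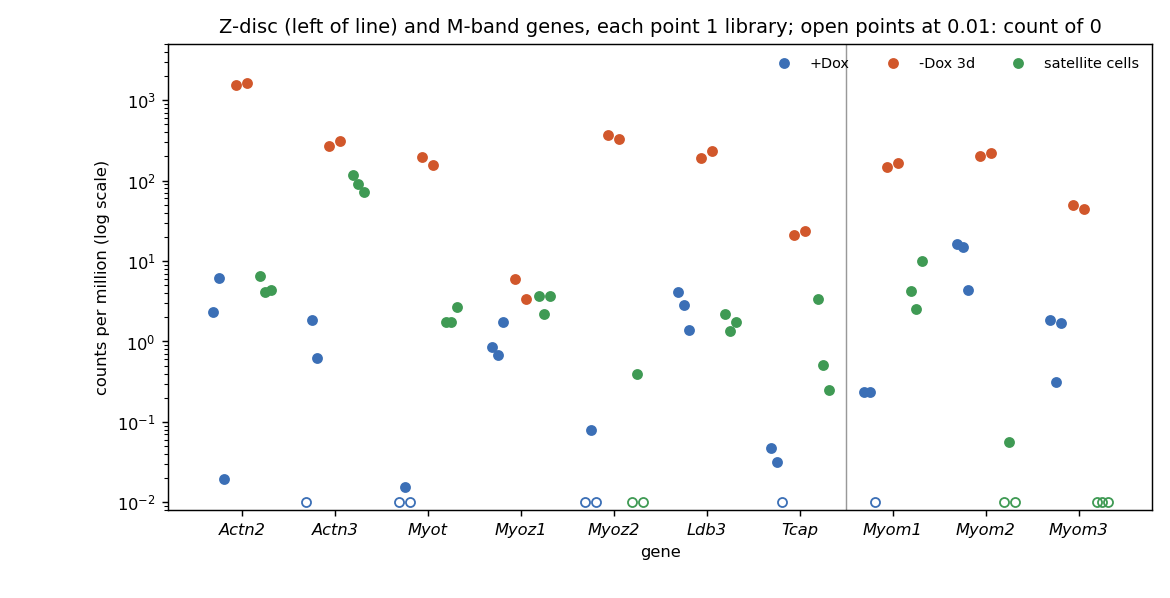
Level (CPM) of each member in each RNA-seq library, on a log axis, with Z-disc genes to the left of the line and M-band genes to the right. Filled points are single libraries and open points at the bottom are libraries with a count of 0. The -Dox points of Myoz1 overlap with those of satellite cells, and Myom2 and Myom3 are at or near 0 in satellite cells.

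**Figure D2:**
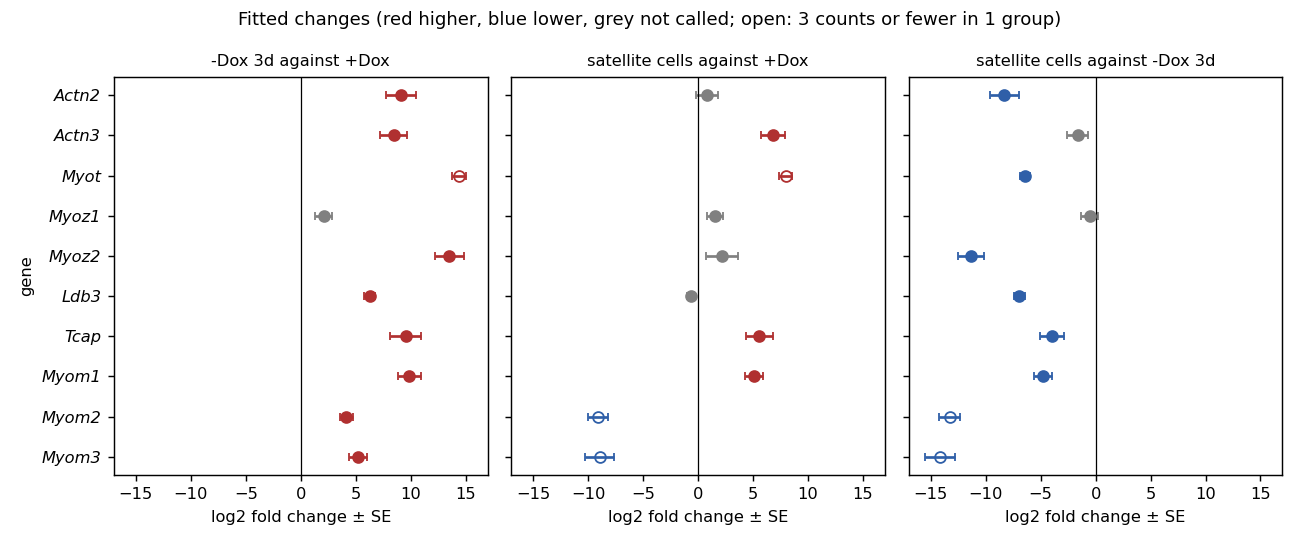
Fitted log2 fold changes with their standard errors for the 10 members in the 3 comparisons. Red points were higher, blue points lower and grey points not called, and open points have 3 counts or fewer in 1 of the groups, so their fitted value depends on the prior count. Satellite cells against +Dox is the comparison with members on both sides of 0.

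α-Actinin is the main cross-linker of the Z-disc, and skeletal muscle makes it from Actn2, used in all fibres and in heart, and from Actn3, used in fast fibres. Actn2 (chr13:12361693-12433027, minus strand) had 2.30, 6.22 and 0.0193 CPM in the +Dox libraries, 1551 and 1636 CPM in -Dox, and 6.51, 4.08 and 4.41 CPM in satellite cells. The -Dox libraries stood apart from both other groups, which overlapped with each other. Actn2 rose upon Dox removal by a log2 fold change of 9.12 (SE 1.35, adjusted p = 0.0033) and was lower in satellite cells than in -Dox by a log2 fold change of -8.31 (SE 1.30, adjusted p = 0.00111). Between satellite cells and +Dox the log2 fold change was 0.81 (SE 0.96, adjusted p = 0.522). The third +Dox library held 1 Actn2 read, against 145 and 397 in the other two, and without the second +Dox library the log2 fold change upon Dox removal was 10.43.

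Actn3 (chr19:4861223-4877909, minus strand) differed from Actn2 in that it was abundant in satellite cells. It had 0, 1.85 and 0.616 CPM in +Dox, 271 and 313 CPM in -Dox, and 116, 91.2 and 72.5 CPM in satellite cells, and no pair of groups overlapped. Actn3 rose after Dox removal (log2 fold change 8.46, SE 1.21, adjusted p = 0.00284) and was higher in satellite cells than in +Dox (log2 fold change 6.82, SE 1.11, adjusted p = 0.00113). Satellite cells held 31.9% of the -Dox mean, and that difference was not called (log2 fold change -1.65, SE 0.94, adjusted p = 0.186). Without the second +Dox library, the log2 fold changes against +Dox were 9.92 for -Dox and 8.22 for satellite cells, and the latter was 6.19 without the first. The difference between satellite cells and -Dox passed the threshold when only the libraries of these groups were fitted (adjusted p = 0.00452) and without the first +Dox library (adjusted p = 0.0144).

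The balance of Actn2 and Actn3, the sarcomeric α-actinins, within a library does not depend on scaling between libraries. Per kilobase of exon, Actn2 was 4.48 and 4.09 times as abundant as Actn3 in the -Dox libraries, whereas in satellite cells Actn3 was 22.7, 28.5 and 21.0 times as abundant as Actn2. Thus Actn3 supplied 18.2 and 19.6% of the summed level of Actn2 and Actn3 in -Dox and 95.8, 96.6 and 95.4% in satellite cells, with no overlap. In +Dox the shares of Actn3 were 0, 27.5 and 97.6%, with sums of at most 2.32 RPKM (CPM per kilobase of exon), and no common balance was seen.

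**Figure D3:**
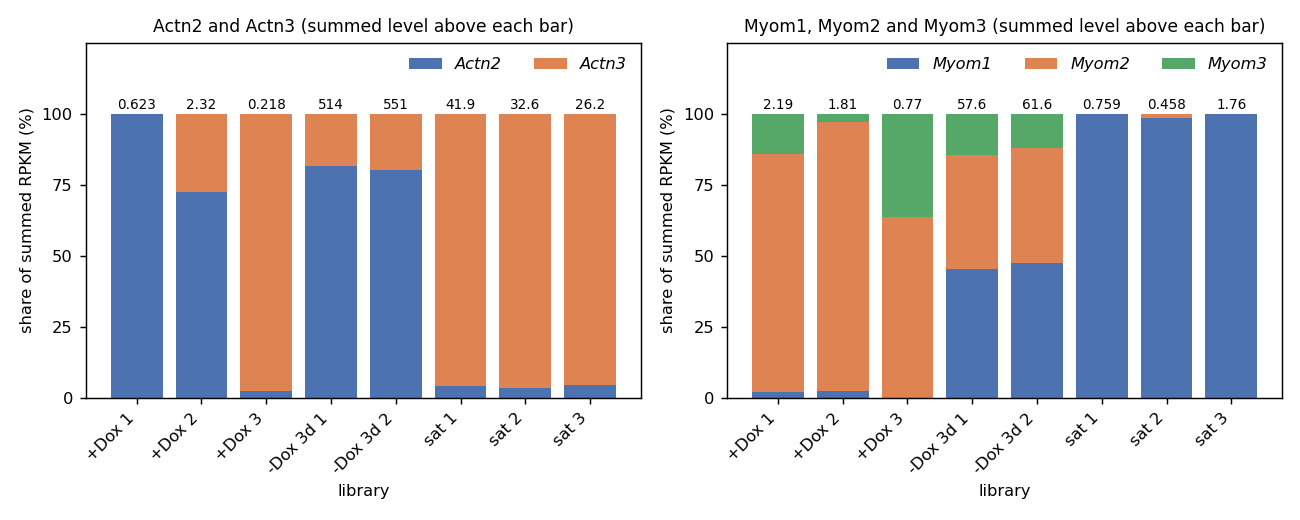
Share of Actn2 and Actn3 in their summed level (left, Actn1 and Actn4 not included) and of each myomesin gene in the summed myomesin level (right) in each library, in percent of RPKM (CPM per kilobase of exon), with the summed level itself above each bar. Actn2 fills about 80% of the -Dox bars and under 5% of the satellite cell (sat) bars, and Myom1 fills from 98.6 to 100.0% of the satellite cell bars.

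Some adult fibre markers were present in the satellite cell libraries. The 9 markers summed to 89.7 to 154 CPM there, 55.1 to 64.4 CPM in +Dox and 13138 to 14173 CPM in -Dox. Without Atp2a1, the calcium pump of fast fibres, the other 8 summed to 17.9 to 39.7 CPM in satellite cells and 45.1 to 62.1 CPM in +Dox, so that the order turned, a sum added after the values were seen. Pvalb, the parvalbumin of fast fibres, had 1.79 to 1.90 CPM in satellite cells and a count of 0 in all +Dox libraries, and Atp2a1 had 71.8 to 115 CPM in satellite cells and 1.37 to 10.7 CPM in +Dox. Myh4, Myh1 and Myh2 also lay above +Dox without overlap, with 1.93 to 5.23, 0.335 to 2.31 and 0.0835 to 0.595 CPM in satellite cells. In +Dox they had at most 0.908, 0.0313 and 0.0157 CPM, and Myh7 overlapped between these groups. Mylpf, Tnni1 and Tnnt3 were not above +Dox, with 2.35 to 7.74, 1.06 to 6.18 and 9.16 to 16.3 CPM in satellite cells and 24.4 to 26.8, 8.31 to 11.3 and 12.4 to 24.6 CPM in +Dox. Expressed as a share of the -Dox mean, Pvalb reached 36.2% in satellite cells, next to the 31.9% of Actn3, whereas the other 8 markers lay far below, with Myh4 at 8.84%, Atp2a1 at 6.31%, Myh2 at 2.55% and Myh1, Tnnt3, Mylpf, Tnni1 and Myh7 between 0.069 and 0.416%. The part of fibre RNA in the satellite cell levels of the members was not tested.

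Myot encodes myotilin, which binds α-actinin and filamin at the Z-disc. Myot (chr18:44493728-44515378, plus strand) had 0, 0.0157 and 0 CPM in +Dox, which is 1 read in all, 196 and 157 CPM in -Dox, and 1.73, 1.73 and 2.65 CPM in satellite cells. No groups overlapped. By pooled counts over pooled library sizes, -Dox was 31537 times and satellite cells were 364 times as high as +Dox, with 95% exact counting intervals of 5659 to 1245700 and of 64.6 to 14442, which cover counting error only. Both changes were called (adjusted p = 6.41e-06 and 2.18e-05), as was the lower level in satellite cells than in -Dox (log2 fold change -6.44, SE 0.44, adjusted p = 2.4e-05). The fitted changes against +Dox, 14.40 and 7.97, became 16.02 and 9.53 without the second +Dox library, which held the single read, and are no bounds.

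Ldb3, also known as Cypher or ZASP, encodes a PDZ and LIM-domain protein that links α-actinin to signalling enzymes. Ldb3 (chr14:35339885-35401867, minus strand) had 4.07, 2.83 and 1.41 CPM in +Dox, 192 and 235 CPM in -Dox, and 2.17, 1.33 and 1.73 CPM in satellite cells. Only -Dox stood apart. The log2 fold change was 6.27 (SE 0.49, adjusted p = 8.51e-05) upon Dox removal, -6.93 (SE 0.50, adjusted p = 3.28e-05) for satellite cells against -Dox, and -0.67 (SE 0.39, adjusted p = 0.193) for satellite cells against +Dox.

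Tcap encodes telethonin, which caps the ends of titin at the Z-disc. Tcap (chr11:98245125-98246267, plus strand) had 0.0477, 0.0313 and 0 CPM in +Dox, 21.4 and 23.6 CPM in -Dox, and 3.42, 0.510 and 0.251 CPM in satellite cells. The groups did not overlap, although the first satellite cell library was higher than the others of its group. Tcap rose after Dox removal (log2 fold change 9.56, SE 1.42, adjusted p = 0.00334), was higher in satellite cells than in +Dox (log2 fold change 5.55, SE 1.22, adjusted p = 0.00562) and was lower there than in -Dox (log2 fold change -4.01, SE 1.09, adjusted p = 0.0173). The first satellite cell library set the size of these differences, since without it Tcap was 3.68 above +Dox and -5.87 against -Dox on the log2 scale. Without the first +Dox library, the log2 fold change upon Dox removal was 10.18. Without either -Dox library the difference between satellite cells and -Dox missed the threshold (adjusted p = 0.065 and 0.0696).

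The myozenins, or calsarcins, tether the phosphatase calcineurin to α-actinin, and Myoz1 is the form of fast fibres while Myoz2 is the form of slow fibres and heart. Myoz1 (chr14:21468324-21475762, minus strand) had the smallest log2 fold change of the members upon Dox removal. It had 0.858, 0.689 and 1.75 CPM in +Dox, 5.99 and 3.38 CPM in -Dox, and 3.65, 2.21 and 3.68 CPM in satellite cells. Every +Dox library lay below the libraries of the other groups, which overlapped. The log2 fold changes of Myoz1 were 2.09 (SE 0.79, adjusted p = 0.156) upon Dox removal, 1.53 (SE 0.73, adjusted p = 0.112) for satellite cells against +Dox and -0.56 (SE 0.78, adjusted p = 0.6) for satellite cells against -Dox. DESeq2 called Myoz1 in the former 2 comparisons (adjusted p = 0.0283 and 0.0358).

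Myoz2 (chr3:122709124-122737908, minus strand) had 0, 0.0783 and 0 CPM in +Dox, 370 and 331 CPM in -Dox, and 0, 0.397 and 0 CPM in satellite cells. It rose after Dox removal (log2 fold change 13.50, SE 1.32, adjusted p = 0.000343) and was lower in satellite cells than in -Dox (log2 fold change -11.36, SE 1.20, adjusted p = 0.000161). All 5 reads in +Dox and all 14 reads in satellite cells came from 1 library of each group, and these groups were not distinguished (adjusted p = 0.253). Without that +Dox library the log2 fold change upon Dox removal was 17.01, and against -Dox the value of satellite cells was -17.11 without the second of their libraries and -10.77 without the first or the third. Per kilobase, Myoz2 was 23.5 and 37.3 times as abundant as Myoz1 in the -Dox libraries, whereas Myoz1 was the higher of the pair in every +Dox and satellite cell library. Since Myoz2 is also a cardiac gene, the 7 cardiac markers were examined, and they summed to 1808 to 2121 CPM in -Dox and to at most 1.00 CPM in +Dox. Myl4, the light chain of atrial and embryonic muscle, supplied 1795 to 2111 CPM of this and Myh6 had 8.24 to 12.8 CPM, whereas Tnni3 and Ryr2 had at most 0.816 CPM and Nkx2-5, Nppa and Myl7 had a count of 0 in both -Dox libraries.

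Myomesins form the elastic bridges of the M-band, with myomesin-1 present in all striated muscle, myomesin-2 (M-protein) in fast fibres and heart, and myomesin-3 in slow and intermediate fibres. Myom1 (chr17:71368861-71476196, plus strand) had 0.238, 0.235 and 0 CPM in +Dox, 148 and 165 CPM in -Dox, and 4.29, 2.55 and 9.96 CPM in satellite cells, and no groups overlapped. Myom1 rose upon Dox removal (log2 fold change 9.89, SE 1.01, adjusted p = 0.000447), was higher in satellite cells than in +Dox (log2 fold change 5.09, SE 0.84, adjusted p = 0.00122) and was lower there than in -Dox (log2 fold change -4.80, SE 0.81, adjusted p = 0.00157). Without the third satellite cell library, the values for satellite cells were 4.38 against +Dox and -5.51 against -Dox.

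Myom2 (chr8:15057653-15133541, plus strand) had the opposite order of precursors and stem cells. It had 16.3, 15.2 and 4.33 CPM in +Dox, 204 and 221 CPM in -Dox, and 0, 0.0567 and 0 CPM in satellite cells, where 2 reads were counted in all. The groups did not overlap. Myom2 rose after Dox removal by a log2 fold change of 4.16 (SE 0.60, adjusted p = 0.00289). By pooled counts over pooled library sizes, +Dox was 665 times (184 to 5490) and -Dox 11397 times (3155 to 94113) as high as satellite cells, with 95% exact counting intervals, and both differences were called (adjusted p = 7.13e-05 and 3.08e-05). The fitted log2 fold changes, -9.13 and -13.29, became -12.23 and -16.39 without the second satellite cell library, which held both reads, and are no bounds.

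Myom3 (chr4:135315630-135371479, plus strand) had 1.87, 0.313 and 1.69 CPM in +Dox, 50.41 and 44.95 CPM in -Dox, and a count of 0 in the 3 satellite cell libraries. It rose upon Dox removal by a log2 fold change of 5.20 (SE 0.79, adjusted p = 0.00785). With a floor of 3 counts per library, Myom3 was at least 15.4-fold lower in satellite cells than in +Dox and at least 567-fold lower than in -Dox, and both differences were called (adjusted p = 0.00147 and 0.000247).

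The myomesins thus differed in balance as well as level. Per kilobase, Myom2 supplied 83.9, 94.8 and 63.5% of the summed myomesin level in +Dox, 40.1 and 40.6% in -Dox, and 0, 1.40 and 0% in satellite cells, so that the 3 groups did not overlap. Myom1 supplied 1.92, 2.30 and 0% in +Dox, 45.4 and 47.4% in -Dox, and 100.0, 98.6 and 100.0% in satellite cells. The sums were low outside -Dox, at 0.770 to 2.19 RPKM in +Dox and 0.458 to 1.76 RPKM in satellite cells, against 57.6 and 61.6 RPKM in -Dox.

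Ordered by level per kilobase, Actn2 led in -Dox with 431 ± 16.3 RPKM (SD, n = 2), followed by Myoz2 with 103 ± 8.12 RPKM and Actn3 with 100.95 ± 10.2 RPKM, whose ranges overlapped. Myot (79.8 ± 12.5 RPKM), Ldb3 (35.5 ± 5.09 RPKM) and Myom1 (27.7 ± 2.13 RPKM) came next with ranges that did not overlap their neighbours. Myom2 and Tcap overlapped at 24.1 ± 1.35 and 23.7 ± 1.64 RPKM, and Myom3 and Myoz1 were last at 7.90 ± 0.64 and 3.62 ± 1.43 RPKM. In satellite cells the order was led by Actn3 with 32.2 ± 7.55 RPKM (SD, n = 3), and Myoz1 came second with 2.46 ± 0.65 RPKM, so the gene that was last in -Dox was second there. Its range overlapped with those of Tcap, Actn2 and Myom1. In +Dox no member had a mean above 1.35 ± 0.75 RPKM (SD, n = 3), that of Myom2.

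Across the 8 libraries, the member profiles most alike were those of Myot and Myom1, with a root mean square difference of 1.10 in centred log2 CPM, followed by Tcap and Myom1, with 1.49, and Myom2 and Myom3, with 1.66. Among all genes tested, the profile of Ldb3 was closest to Fgf6 (0.34) and to Srl (0.39), which encodes sarcalumenin of the sarcoplasmic reticulum, and that of Myot was closest to Tmem182 (0.53) and to the triadin gene Trdn (0.74). Myom1 was closest to the transcription factor gene Mef2c (0.76) and to Ctxn3 (0.92), Tcap to Galnt6 (0.45) and Mrvi1 (0.54), Myoz1 to Mocs2 (0.35) and Zfp189 (0.39), and Myom3 to Camk2a (0.84) and Prr32 (0.89). Actn3 was closest to Mustn1 (0.97) and Klhl40 (1.31), Actn2 to Lmod3 (1.08), which encodes a leiomodin that seeds actin filaments, and to Srpk3 (1.32), Myom2 to Synpo2l (1.08) and Ptprv (1.22), and Myoz2 to R3hdml (1.17) and Txlnb (1.28). These values are a description over libraries that share their group differences.

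Other genes of the Z-disc and M-band gave a background for the members. Of 35 such genes listed, 34 were tested and Myoz3 was not, with 2 reads in satellite cells and 0 in iPax7 cells. Upon Dox removal 20 rose and 0 fell, with a median log2 fold change of 2.75, where 4.63% of all genes tested rose and 3.01% fell. At the upper end, Mypn (myopalladin) had 0 reads in +Dox and 33.1 to 58.1 CPM in -Dox, and the Xin repeat genes Xirp1 and Xirp2 had 2 reads each in +Dox and 96.3 to 115 and 52.1 to 66.8 CPM in -Dox. At the lower end of the genes called, Flnc (filamin C, 76.4 to 107 CPM in +Dox and 358 to 382 CPM in -Dox), Pdlim5 (10.6 to 24.0 and 80.1 to 82.3 CPM) and Synpo2 (10.9 to 36.1 and 124 to 132 CPM) rose by log2 fold changes of 2.07, 2.30 and 2.39.

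Between satellite cells and +Dox, 23.9% of all genes tested were called higher in satellite cells and 18.2% lower. Of the 34 other genes, 16 were higher and 6 were lower, the latter near the share of all genes. The lower ones were Synpo2l (log2 fold change -7.81), Nrap (-6.89), Trim54 (-5.64), Ttn (-2.61), Fhl2 (-1.88) and Trim55 (-1.78). Of these, Ttn encodes titin, Nrap an anchoring protein of nascent myofibrils, and Trim54 and Trim55 encode proteins of the MuRF family. Adjusted p-values ran from 3.62e-06 for Synpo2l to 0.00863 for Fhl2. Among the higher ones, Nebl (nebulette) had 0 reads in both iPax7 groups and 0.567 to 6.67 CPM in satellite cells, Xirp1 had 3.54 to 20.2 CPM in satellite cells, and Cmya5 (myospryn) had 0 reads in +Dox and 0.0558 to 2.34 CPM in satellite cells. The smallest increases called were those of Pdlim7, Actn4 and Pdlim3, with log2 fold changes of 1.15, 1.30 and 1.58.

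Between satellite cells and -Dox, 17.2% of all genes tested were called lower in satellite cells and 20.4% higher. Of the 34 other genes, 20 were lower and 4 were higher. Those higher were Bag3 (2054 to 3462 CPM in satellite cells and 63.9 to 67.3 CPM in -Dox), a co-chaperone of the Z-disc, Flnc (1227 to 3295 and 358 to 382 CPM), Actn4 (615 to 1323 and 160 to 235 CPM), a non-muscle α-actinin, and Nebl, with adjusted p-values of 3.55e-05, 0.00116, 0.00284 and 0.0137. The lowest were Trim63, Nrap and Synpo2l, with 0, 6 and 14 reads in all satellite cell libraries and 32.6 to 33.1, 122 to 138 and 173 to 206 CPM in -Dox.

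Chromatin accessibility was measured by ATAC-seq, with 1 merged peak list per condition and hence no replicate error. Beside iPax7 cells and satellite cells, it covered myotubes formed by iPax7 cells in medium with 2% horse serum and the mouse myoblast line C2C12, as myoblasts in 10% FBS (unmodified, with a flag control or with Pax7-flag) and as myotubes. A peak lay within 1 kb of a TSS at 5 of 10 members in +Dox, where 66.8% of all genes with a coding TSS had one. The same count was found 12h and 24h after Dox removal (64.9 and 68.1% of all genes), and it was 6 of 10 after 3 days (69.2%) and 10 of 10 in iPax7 myotubes (65.4%). It was 2 of 10 in satellite cells (62.1%), 2 of 10 in each of the 3 C2C12 myoblast samples (47.9% unmodified, 59.1% with the flag control and 60.1% with Pax7-flag) and 7 of 10 in C2C12 myotubes (57.4%). Members thus fell below the share of all genes in satellite cells and C2C12 myoblasts and above it in iPax7 myotubes, which was not tested. In the 4 iPax7 samples before the myotube stage and in C2C12 myotubes, the counts of 10 members were near that share. Without Actn3, whose window also holds the TSS of Zdhhc24, 1 of 9 members had a peak in satellite cells and in each C2C12 myoblast sample, 4 in +Dox, 5 at 3 days, 9 in iPax7 myotubes and 6 in C2C12 myotubes.

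**Figure D4:**
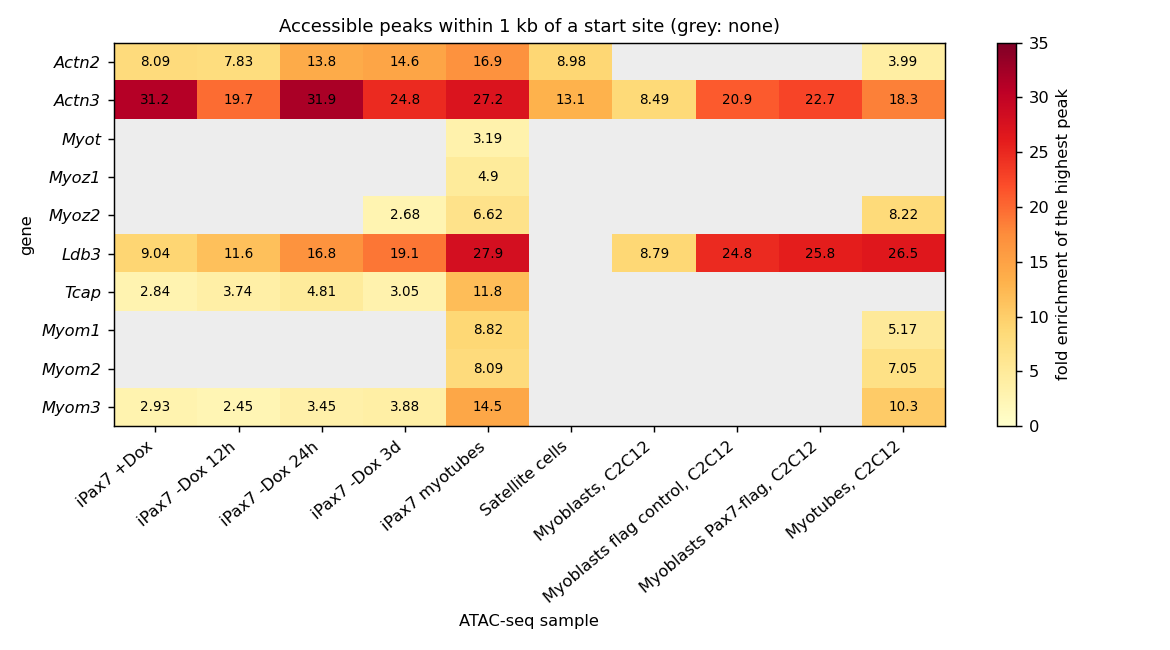
Fold enrichment of the highest ATAC-seq peak within 1 kb of a TSS of each member (rows) in each of 10 samples (columns), as the peak caller gave it, with grey for no peak. The column of iPax7 myotubes has a value in all 10 rows and that of satellite cells in 2 rows, Actn2 and Actn3.

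Actn2 had a promoter peak with a fold enrichment of 8.09 in +Dox, where its RNA was at most 6.22 CPM, and of 7.83, 13.8 and 14.6 at 12h, 24h and 3 days without Dox and 16.9 in iPax7 myotubes. Satellite cells had the same peak at 8.98, with its summit 52 bases before the TSS, whereas the C2C12 myoblast samples had none. Ldb3 gave the reverse picture, with fold enrichments of 9.04 in +Dox, 19.1 at 3 days and 8.79 to 25.8 in C2C12 myoblasts but no peak in satellite cells. Fold enrichment depends on the depth of each merged sample, and the median over all genes with a promoter peak was 22.4 in +Dox, 21.5 at 3 days, 13.9 in satellite cells and 7.45 to 20.2 in C2C12 myoblasts.

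The Actn3 peak was present in all 10 samples, at fold enrichments from 8.49 to 31.9. Its summit lay 640 to 692 bases before the Actn3 TSS and 71 to 123 bases from the TSS of Zdhhc24, a gene on the other strand whose end nearest to Actn3 is 758 bases away, so this peak cannot be assigned to Actn3. No exon of a member shares bases with an exon of another gene, although Myom1 lies within the span of the lincRNA gene Gm16724 on the same strand and the pseudogene Gm15678 overlaps 1022 bases of Myom2 on the other strand. Neither is in the count tables.

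The promoters of 4 members had no peak at 3 days without Dox although their genes were transcribed. Myot (157 to 196 CPM), Myoz1 (3.38 to 5.99 CPM), Myom1 (148 to 165 CPM) and Myom2 (204 to 221 CPM) had no peak in any iPax7 sample before the myotube stage, where fold enrichments were 3.19, 4.90, 8.82 and 8.09. Myoz2 had its lowest value at 3 days (2.68) and none before. Tcap and Myom3 had weak peaks from +Dox on, at 2.84 and 2.93, which reached 11.8 and 14.5 in iPax7 myotubes. In C2C12 myotubes, Myom1, Myom2, Myom3 and Myoz2 had peaks of 5.17 to 10.3, while Myot, Myoz1 and Tcap had none.

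Accessible regions within the genes were counted as well. Myom2 held 10 peaks in +Dox, 14 at 3 days without Dox and 1 in satellite cells, and Myom3 held 6, 6 and 1. Myom1 held 12, 11 and 7 and Actn2 held 6, 10 and 6. Of the 1488 genes with at least 10 peaks in +Dox, a limit set after the values of Myom2 were seen, the median in satellite cells was 9 and 6.25% had 1 or fewer.

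Histone marks were mapped by ChIP-seq in iPax7 cells, again with replicates merged. H3K4me3, the mark of active promoters, was found within 1 kb of a TSS at 4 of 10 members in +Dox (Actn3, Ldb3, Tcap and Myom3; 64.1% of all genes) and at 10 of 10 in -Dox (69.8%). The -Dox regions of this mark covered 155.0 megabases and those of +Dox 63.62 megabases, and the median share of a gene covered was 9.46 and 4.13%. The -Dox regions shared more bases with H3K4me1 of -Dox (Jaccard index 0.585) and of +Dox (0.472) than with H3K4me3 of +Dox (0.336), and 73.9% of their bases lay in H3K4me1 regions of -Dox. The H3K4me3 regions of +Dox likewise had 85.4% of their bases in H3K4me1 regions of +Dox, but with a lower Jaccard index (0.396). H3K4me3 regions held 73.7% of the H3K4me1 bases in -Dox and 42.5% in +Dox. The part of this overlap in the counts at members was not tested. At Actn3, 1 of the 2 H3K4me3 regions in +Dox covered the TSS of Zdhhc24 and the other lay between the start sites of both genes, and without Actn3 the counts were 3 of 9 and 9 of 9. H3K4me1, the enhancer mark, was found at 7 members in +Dox (65.3%) and at 10 in -Dox (68.5%). H3K27Ac, which marks active enhancers and promoters, was found at 8 members in both (51.1 and 48.0%). It was at Myoz1 in +Dox only and at Actn2 in -Dox only, and it was at Myot in neither.

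H3K27me3, the Polycomb mark, was found at 1 member in +Dox (22.8%) and in -Dox (20.9%), and this was Actn2 in both. In C2C12 myoblasts with the flag control it was found at Actn2 and Myot (19.5%), and with Pax7-flag also at Myom3 (22.2%). H3K27me3 covered 11.5 and 21.2% of Actn2 and 31.6 and 36.7% of Myot in the flag control and Pax7-flag lines, against a median of 0 over all genes, and 2.74 and 1.89% of these genes in +Dox iPax7 cells. Within the gene it also covered 6.38 and 20.6% of Myom3 in the C2C12 lines, and of Actn3 it covered 11.0% in +Dox, 7.02% in -Dox and 8.46% with Pax7-flag. In these lines H3K4me3 was found at Actn3 and Ldb3 in both (48.2 and 40.3%). H3K27Ac was found at 2 members with the flag control (56.9%) and at 3 with Pax7-flag (58.0%), which were Actn3, Ldb3 and, with Pax7-flag, Myom3. H3K4me1 was found at 4 and 8 members (52.6 and 66.9%). Thus the window of 1 kb around the Actn2 TSS held an accessible peak and H3K27me3 in +Dox iPax7 cells, and H3K27me3 without an accessible peak in the C2C12 myoblast lines. In +Dox the larger of the 2 H3K27me3 regions (chr13:12431201-12432446) did not overlap the accessible peak (chr13:12432871-12433336).

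Pax7 binding sites were compared with the members' positions. Of 2455 sites, none lay within 50 kb of a member's TSS, where 11.1% of all genes had one, and 1 member had a site within 100 kb, where 18.8% of all genes had one. This was Myoz2, with a site 65.9 kb upstream. The nearest sites were 163 to 430 kb away for 8 members and 2712 kb away for Actn2, and the median distance over all genes was 386 kb.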

How the data were processed

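RNA was sequenced in 8 libraries, and the authors deposited whole-number counts per gene symbol without normalization. Each RNA-seq group is 1 GEO sample with 3, 2 or 3 files, which were taken as replicates from the replicate numbers in the file names. The roles of the tools named in the submitters' processing notes (Trimmomatic 0.32, TopHat2 2.0, Bowtie2 2.2, HTSeq 0.6) and the RNA-seq annotation are not given in the sources used here. ATAC-seq peaks were called by the authors with MACS2 2.0.10 on merged replicates, with Bowtie2 2.2.6 alignment to mm9. The deposited peak lists give fold enrichment as a ratio and q-values as -log10, and the deposited histone and Pax7 regions came from Qeseq. Columns of coordinates were used as deposited.

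The members and gene lists were chosen with earlier results of these data known. Counts were tested with edgeR 4.0.16 (R 4.3.3), quasi-likelihood, TMM, filterByExpr, 1 mean per group over all 8 libraries and Benjamini-Hochberg adjustment. SE is the log2 fold change over the square root of F. RPKM used GENCODE M1 exon lengths. The script was tested on simulated data. Named genes were the members, other listed genes called against the members' majority or with the 3 largest and 3 smallest changes, and the 2 nearest profiles. Alternatives were DESeq2 1.42.0, RLE factors, other filters, 2-group fits, a replicate block, no fold threshold, leaving out libraries and other peak windows. Pax7 binding sites were those the authors found with Dox and not without it.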

Additional observations from a re-analysis of the deposited data

How the results depend on the processing

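The numbers of members called stayed within 1.5 times in 90 of 90 alternative values, and 441 of 448 values of single members kept their direction and their side of the threshold. Same-numbered libraries did not deviate together (r from -0.049 to 0.033), so no pairing was assumed. With a replicate block, 9 members were called upon Dox removal, and 1 of the other Z-disc and M-band genes fell where 0 did without the block. Over all genes, calls upon Dox removal went from 1134 to 741 with the replicate block, to 1950 when only these 2 groups were fitted, and to between 488 and 674 without 1 of the first 2 +Dox or either -Dox library. Calls between satellite cells and -Dox went from 5579 to 3204 and 3382 without either -Dox library. Where a group was left with 1 library, it was assumed to vary like the others. Between satellite cells and +Dox, the log2 fold change of Myoz2 ranged from -3.61 without the second satellite cell library to 5.61 without the second +Dox library, which held all the Myoz2 reads of their groups. DESeq2 counts over all genes were not obtained, nor were values of Myoz2 and Tcap for this comparison in the 2-group fit.

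With a window of 5 kb, 8 members had an accessible peak in +Dox and 8 at 24h without Dox. With peaks of -log10 q of at least 10, 3 did in +Dox and 3 at 12h. At 5 kb, H3K27me3 in +Dox was at 2 members and H3K27Ac in Pax7-flag C2C12 myoblasts at 6, and by peak midpoints H3K27me3 in the flag control was at 1. When Actn3 was left out, an alternative chosen after seeing the data, an accessible peak was at 1 member in satellite cells and in each C2C12 myoblast sample, H3K4me3 at 1 in both C2C12 lines and H3K27Ac at 1 in the flag control. Within 10 and 50 kb of a Pax7 site lay 0 members. Depth limits the values of genes with few reads, such as Myoz2 outside -Dox. Of a single gene, an exact permutation of 3 against 2 libraries cannot give a p below 0.1.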

Other observations

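The other two known forms of α-actinin, Actn1 and Actn4, are not specific to muscle, and their levels stood beside those of the sarcomeric forms. Actn1 had 130 ± 38.6 CPM (SD, n = 3) in +Dox, 127 ± 18.4 CPM (SD, n = 2) in -Dox and 71.9 ± 21.9 CPM (SD, n = 3) in satellite cells, and it was called in none of the 3 comparisons. Actn4 had 388 ± 123 CPM in +Dox, 197 ± 53.4 CPM in -Dox and 957 ± 354 CPM in satellite cells. Cryab, the small heat shock protein that binds desmin at the Z-disc, was called higher in -Dox and in satellite cells than in +Dox by log2 fold changes of 2.83 and 2.78, and the value between satellite cells and -Dox was -0.05 (SE 0.36, adjusted p = 0.928 from edgeR).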
